A study of Mus musculus with 6 samples.

Results

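Sca-1, the surface protein used to mark mouse blood stem cells, is encoded by Ly6a, a gene of the Ly6 family on chromosome 15. The 6 family members described here are Ly6a, Ly6c1, Ly6c2, Ly6d, Ly6e and Ly6g. They were selected by name from 38924 rows of an RNA-sequencing table, and 5 of the 6 passed a filter on low values that 10958 rows passed. The set was chosen by a measured value, the level of Ly6a in these same libraries, which was known to be high in preleukemia and low in leukemia, so the values of Ly6a are given as a description without a test. All cells came from the bone marrow of C57BL/6 mice transplanted with transduced marrow, and had been sorted for GFP and the receptor c-kit and against mature lineage markers. Leukemia cells (2 libraries) carried Evi1-GFP and were taken 6 months after transplantation. Preleukemia cells (2 libraries) carried the same Evi1-GFP and were taken at 4 weeks. Mock cells (2 libraries) carried GFP alone and were taken at 4 weeks. No mock sample at 6 months is in the design, so leukemia and the longer time since transplantation cannot be told apart when leukemia is set against mock or preleukemia. The comparison of preleukemia with mock is matched in time.

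Ly6 proteins are small, cysteine-rich proteins with a three-finger fold, and most are held at the outer cell surface by a glycosylphosphatidylinositol (GPI) anchor. In the blood system they mark cell types: Sca-1 marks stem cells and early progenitors, Ly6C marks monocytes and some progenitors and T cells, and Ly6G marks neutrophils. Interferon raises Ly6a, Ly6c and Ly6e in many cells. Antibodies to Gr-1, a common part of lineage-depletion mixes, bind Ly6G and to a lesser degree Ly6C. The labels do not list the lineage antibodies used, so what the sort removed on these proteins was not tested.

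Levels are in RPKM, read numbers scaled to the length of the transcript and to the size of the library. Recovered library totals were 16922992 to 21641740 reads, and 3 reads on a transcript of 1 kb were worth 0.139 to 0.177 RPKM. Mecom, the gene that encodes Evi1, averaged 66.6 RPKM in leukemia, 79.1 RPKM in preleukemia and 0.789 RPKM in mock, and Kit, which encodes c-kit, averaged 48.0, 58.5 and 63.4 RPKM in the same order of groups. Differences were tested with limma on the scale of log2(RPKM + 1), with p-values adjusted by the Benjamini-Hochberg method over all genes tested and called at 0.05. The mock libraries were the least alike, with a median absolute log2 difference between libraries of 0.11 in leukemia, 0.11 in preleukemia and 0.22 in mock. Whether both libraries of a group derive from different mice is not stated in the labels, so the p-values speak only of variation among libraries, and this may be technical. These are bulk samples, in which fewer cells of a type and less RNA per cell cannot be told apart.

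The 6 members did not move as a block. Ly6c1 and Ly6c2 were lower in leukemia, by 14.0- to 17.2-fold at the group means, Ly6e was higher in both Evi1 groups than in mock, and Ly6a stood high in preleukemia only. Ly6d was near the detection limit throughout, and Ly6g differed most between the preleukemia libraries. Among the 4 tested members other than Ly6a, 3 passed the test for leukemia against mock, where 25.6% of all genes tested were called. For preleukemia against mock 1 of the 4 passed, against a background of 19.5%. For leukemia against preleukemia 2 of the 4 passed, against a background of 18.3%. Calls in 1 direction were 12.1% higher and 13.5% lower for leukemia against mock, 13.5% higher and 6.02% lower for preleukemia against mock, and 5.27% higher and 13% lower for leukemia against preleukemia. These shares over all genes are also the background for the counts in the gene lists below. The higher part of all calls in preleukemia against mock was 69.2% as deposited, 59.0% after a trimmed-mean scaling and 52.9% after quantile normalization, and in leukemia against preleukemia it was 28.8%, 41.8% and 50.8%. Library values of 2 groups of 2 failed to overlap in 65.4%, 62.7% and 70.7% of genes in the same order of comparisons, so a lack of overlap is common in this table.

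**Figure D1:**
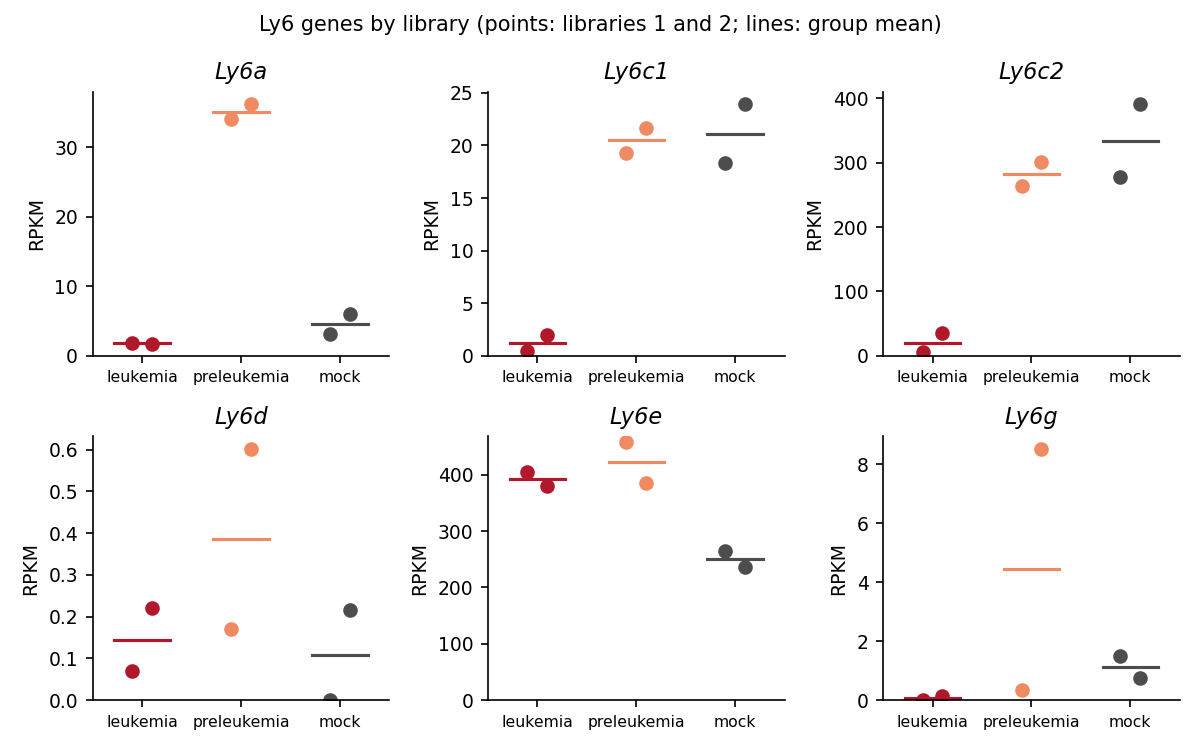
RPKM of the 6 Ly6 genes in the leukemia, preleukemia and mock libraries (points, 2 per group; lines, group means; each panel has its own axis from 0). Ly6a stands between 34.0 and 36.2 RPKM in preleukemia and at or below 6.04 RPKM elsewhere, whereas Ly6c1 and Ly6c2 are low in both leukemia libraries.

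Ly6a (chr15:74994877-74998031, minus strand, ENSMUSG00000075602.10) had 1.86 and 1.74 RPKM in the leukemia libraries, 34.0 and 36.2 RPKM in the preleukemia libraries and 3.11 and 6.04 RPKM in the mock libraries. Both preleukemia libraries lay far above all others, both leukemia libraries were the lowest, and no groups overlapped. The means were 1.8 ± 0.0848 RPKM in leukemia, 35.1 ± 1.54 RPKM in preleukemia and 4.57 ± 2.08 RPKM in mock (SD, n = 2 each). Preleukemia was thus 7.67-fold above mock, and leukemia was 19.5-fold below preleukemia and 2.54-fold below mock. The leukemia values rested on 32 and 28 reads, with 95% Poisson intervals of 1.27 to 2.63 and 1.16 to 2.51 RPKM that cover counting error only. In mock library 1, 55 reads gave an interval of 2.34 to 4.04 RPKM, which overlaps those of both leukemia libraries. Whether the gap between these libraries exceeds counting error was not tested. The preleukemia values rested on 471 and 641 reads, and their intervals, 31.0 to 37.2 and 33.4 to 39.1 RPKM, lay clear of all others. The RNA of Sca-1 thus stood at 1.74 to 6.04 RPKM in the sorted cells of leukemia and mock.

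Whether the reads can be ascribed to Ly6a depends on its relatives. Of all 50-base windows in the annotated coding transcripts of Ly6a, 81.0% occurred in no other gene. The largest shared part, 15%, was shared with Ly6c1, a further 2.39% with Ly6i and 0.231% with Ly6c2. Ly6c1 shared 21.5% of its windows with Ly6c2 and 11.1% with Ly6a, leaving 67.2% of its own, and Ly6c2 shared 30.8% with Ly6c1, leaving 68.8% of its own. For Ly6d and Ly6e all 50-base windows were their own (100% each), and for Ly6g 99.6% were. The read length and the treatment of reads with several positions are not stated in the labels. Across windows of 36 to 100 bases the unique share was 71.2% to 98.6% for Ly6a, 57.1% to 89.9% for Ly6c1 and 53.8% to 85.1% for Ly6c2.

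**Figure D2:**
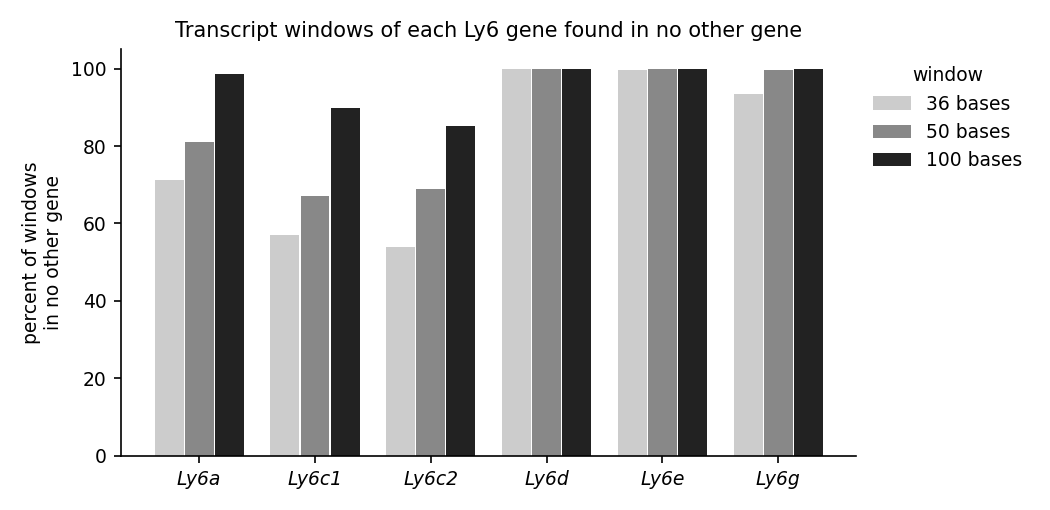
Percent of the distinct windows of 36, 50 and 100 bases in the annotated protein-coding transcripts of each Ly6 gene that occur in no other gene. Ly6d, Ly6e and Ly6g lie at or near 100% at 50 bases, whereas Ly6a is at 81.0%, Ly6c1 at 67.2% and Ly6c2 at 68.8%.

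The coding sequences show where the copies coincide. Ly6c1 and Ly6c2 had the same base at 384 of 393 coding positions (97.7%), with the longest identical run at 188 bases, and Ly6a matched Ly6c1 at 329 of 402 aligned positions (81.8%). Ly6a matched Ly6g at 83.1%, Ly6i at 86.3%, Ly6e at 53.5% and Ly6d at 49.9% of aligned positions. The first coding exon, which holds 6 of the 9 coding differences between Ly6c1 and Ly6c2, is given for Ly6c1, Ly6c2 and Ly6a, the members that share 50-base windows with each other, from GENCODE M21 on GRCm38 (Ly6c1 chr15:75048442-75048511, Ly6c2 chr15:75111598-75111667, Ly6a chr15:74997535-74997604, all on the minus strand). Capitals mark bases that differ between Ly6c1 and Ly6c2 and, in the Ly6a line, bases that differ from Ly6c1.
Ly6c1 exon 1: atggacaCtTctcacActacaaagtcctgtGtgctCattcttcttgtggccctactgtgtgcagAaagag
Ly6c2 exon 1: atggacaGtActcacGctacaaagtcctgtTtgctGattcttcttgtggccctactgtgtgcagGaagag
Ly6a exon 1: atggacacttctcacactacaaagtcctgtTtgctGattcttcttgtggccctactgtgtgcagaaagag

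Ly6a differed from Ly6c1 at 2 of these 70 bases, so a short read within that exon cannot always separate the genes. The second coding exon behaved in the opposite way for Ly6a. It was identical in Ly6c1 (chr15:75047353-75047469) and Ly6c2 (chr15:75110511-75110627) over all 117 bases, while Ly6a (chr15:74996452-74996568) differed from both at 25 of them, in capitals here.
Ly6c1 and Ly6c2 exon 2: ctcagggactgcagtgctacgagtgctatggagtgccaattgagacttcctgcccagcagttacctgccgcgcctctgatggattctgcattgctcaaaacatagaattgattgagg
Ly6a exon 2: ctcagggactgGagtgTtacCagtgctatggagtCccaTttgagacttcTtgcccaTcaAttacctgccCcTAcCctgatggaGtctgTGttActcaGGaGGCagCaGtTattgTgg

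Ly6c2 (chr15:75108158-75111970, minus strand, ENSMUSG00000022584.14) encodes a form of Ly6C, the surface marker of inflammatory monocytes. It had 5.68 and 34.8 RPKM in the leukemia libraries, 264 and 301 RPKM in the preleukemia libraries and 277 and 390.4 RPKM in the mock libraries. Both leukemia libraries lay below all 4 others, and preleukemia overlapped mock. The means were 20.2 ± 20.6 RPKM in leukemia, 282 ± 26.1 RPKM in preleukemia and 334 ± 80.1 RPKM in mock (SD, n = 2 each). Ly6c2 fell in leukemia, 16.5-fold below mock (log2 difference -4.42, SE 0.68, limma adjusted p = 0.00572) and 14.0-fold below preleukemia (-4.19, SE 0.68, adjusted p = 0.00960). Preleukemia did not differ from mock past the test (-0.22, adjusted p = 0.845). The drop against preleukemia missed the threshold without preleukemia library 1 (-4.29, adjusted p = 0.0533) and without preleukemia library 2 (-4.10, adjusted p = 0.0747), with the difference itself about as large.

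Ly6c1 (chr15:75044018-75048830, minus strand, ENSMUSG00000079018.10), the second Ly6C gene, had 0.442 and 2.01 RPKM in the leukemia libraries, 19.3 and 21.7 RPKM in the preleukemia libraries and 18.3 and 23.9 RPKM in the mock libraries. The leukemia libraries were again the lowest, and the mock range enclosed the preleukemia range. The means were 1.22 ± 1.11, 20.5 ± 1.69 and 21.1 ± 3.95 RPKM in leukemia, preleukemia and mock (SD, n = 2 each). Ly6c1 fell in leukemia 17.2-fold below mock (log2 difference -3.40, SE 0.33, limma adjusted p = 0.00117) and 16.7-fold below preleukemia (-3.36, SE 0.33, adjusted p = 0.00235). These calls held without each library in turn. For preleukemia against mock the difference was -0.03 (adjusted p = 0.954).

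The leukemia libraries differed from each other in both Ly6C genes, by 6.12-fold for Ly6c2 (95 and 544 reads) and 4.54-fold for Ly6c1 (8 and 34 reads). Library 2 was the higher one in each case, and both libraries remained below every preleukemia and mock library. The level of Ly6c1 was 7.78% and 5.77% of that of Ly6c2 in the leukemia libraries, 7.30% and 7.20% in the preleukemia libraries and 6.60% and 6.12% in the mock libraries. This share moved little while the level of Ly6c2 spanned 5.68 to 390.4 RPKM. Given 97.7% identical coding bases, how far the reads counted for Ly6c1 came from Ly6c2 was not tested.

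Monocyte and macrophage markers did not follow the Ly6C genes as a list. Of 12 in the table, 11 were above 0 in leukemia and 12 each in preleukemia and mock. Their summed level was 797 and 881 RPKM in the leukemia libraries, 1768 and 2409 RPKM in the preleukemia libraries and 277 and 415 RPKM in the mock libraries. In leukemia most of the sum came from Lyz2 and from F13a1, the A chain of coagulation factor XIII. Of the 10 that passed the filter, 3 were higher and 3 lower in leukemia than in mock, with a median log2 difference of 0.20 beside -0.04 over all genes. Lysozyme gene Lyz2 rose (293 and 348 RPKM in leukemia, 58.0 and 77.0 RPKM in mock; 2.24, limma adjusted p = 0.00129). F13a1 rose as well (340.1 and 364 RPKM in leukemia, 95.3 and 149.8 RPKM in mock; 1.55, adjusted p = 0.00309), as did Cd68, a lysosomal glycoprotein of macrophages (1.64, adjusted p = 0.000763). Ccr2, the chemokine receptor of Ly6C-high monocytes, fell (3.67 and 3.57 RPKM in leukemia, 11.8 and 12 RPKM in mock; -1.48, adjusted p = 0.000499), and so did Klf4, a transcription factor needed for monocyte formation (-2.49, adjusted p = 0.00324). Unlike the Ly6C genes, Ccr2 was already low in preleukemia (3.33 and 3.22 RPKM), with -1.59 against mock (limma adjusted p = 0.000632). Leukemia and preleukemia differed by 0.11 in Ccr2 (adjusted p = 0.519). In preleukemia against mock 3 of the 10 markers were higher and 2 lower (median 0.15, beside 0.05). In leukemia against preleukemia 1 of the 10 was higher and 3 were lower (median 0.04, beside -0.09). Cd68 rose (1.00, limma adjusted p = 0.00579). Lyz2 (-2.37, adjusted p = 0.00224), Klf4 (-1.39, adjusted p = 0.0309) and Cx3cr1 (-0.57, adjusted p = 0.0420) fell. Without a filter on low values Klf4 and Cx3cr1 lost these calls (adjusted p = 0.101 and 0.113). The part of these cell types in the fall of the Ly6C genes was not tested.

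Since Ly6c1 and Ly6c2 moved together, their promoters are shown, 250 bases upstream of the RefSeq start on GRCm38.p6, minus strand (Ly6c1 chr15:75048838-75049087, Ly6c2 chr15:75111972-75112221). RefSeq sequences were at hand for 3 of the 6 members, Ly6c1, Ly6c2 and Ly6g. Capitals mark the motif matches named after the sequences.
Ly6c1 promoter: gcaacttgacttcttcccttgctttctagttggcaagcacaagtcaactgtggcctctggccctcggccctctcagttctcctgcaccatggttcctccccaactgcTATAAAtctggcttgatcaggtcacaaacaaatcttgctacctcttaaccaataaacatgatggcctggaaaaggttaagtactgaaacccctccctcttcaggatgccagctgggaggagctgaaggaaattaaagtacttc
Ly6c2 promoter: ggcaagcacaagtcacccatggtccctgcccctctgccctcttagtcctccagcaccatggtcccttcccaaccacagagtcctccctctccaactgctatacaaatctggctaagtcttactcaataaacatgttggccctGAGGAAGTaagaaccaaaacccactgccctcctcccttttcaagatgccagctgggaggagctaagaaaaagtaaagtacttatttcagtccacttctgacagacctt

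In these windows Ly6c1 held TATAAA 143 to 138 bases before the start, a motif found in 13% of all 27025 mouse promoter windows of the same length. Ly6c2 held GAGGAAGT, the motif of the myeloid factor PU.1, with its first base 108 bases before the start, which 2.44% of promoters hold. Ly6g held the PU.1 motif at 31 to 24, the C/EBP motif TTGCNNAA at 232 to 225 on the other strand and TATAAA at 99 to 94 bases before the start, and TTGCNNAA occurs in 9.55% of promoters. Searched on both strands, the interferon-gamma motif TTCNNNGAA (7.18% of promoters) and the Evi1 motifs GACAAGATA (0.115%) and GAAGATGAG (0.318%) had no match in the 3 windows. A match is a description of letters and not a binding site.

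Ly6e (chr15:74955051-74959905, plus strand, ENSMUSG00000022587.14), a broadly expressed member induced by interferon, had 404 and 379 RPKM in the leukemia libraries, 457 and 386 RPKM in the preleukemia libraries and 265 and 236 RPKM in the mock libraries. Every Evi1 library lay above both mock libraries, and leukemia overlapped preleukemia. The means were 391 ± 17.6, 421 ± 50.5 and 250.2 ± 20.4 RPKM in leukemia, preleukemia and mock (SD, n = 2 each), from 10963 to 19513 reads per library. Ly6e rose 1.56-fold in leukemia against mock (log2 difference 0.64, SE 0.12, limma adjusted p = 0.0123) and 1.68-fold in preleukemia against mock (0.75, SE 0.12, adjusted p = 0.00989), while leukemia and preleukemia differed by -0.10 (adjusted p = 0.616). The call in leukemia was lost without leukemia library 1 (0.60, adjusted p = 0.0807), without leukemia library 2 (0.69, adjusted p = 0.0596) and with no filter on low values (adjusted p = 0.0531). That in preleukemia was lost without preleukemia library 1 (0.62, adjusted p = 0.0643).

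**Figure D3:**
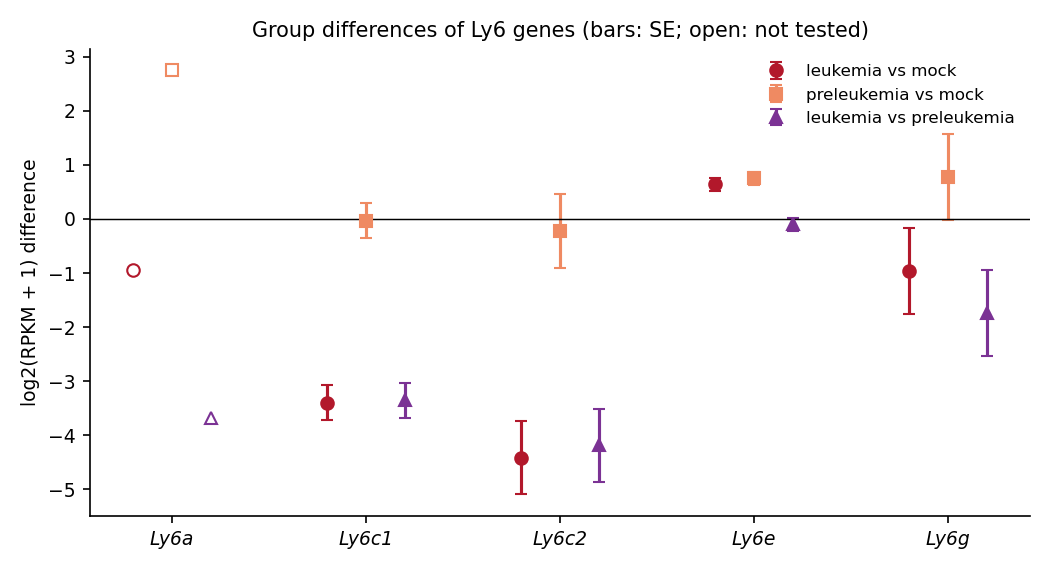
Differences between group means on the log2(RPKM + 1) scale for the 5 Ly6 genes that passed the filter (bars, standard errors; open symbols, Ly6a, not tested). The Ly6c1 and Ly6c2 differences lie at -3.36 to -4.42 in both comparisons of leukemia and near 0 for preleukemia against mock, and Ly6e lies above 0 in both comparisons with mock.

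Ly6g (chr15:75155240-75159126, plus strand, ENSMUSG00000022582.4), the neutrophil antigen, had 0 and 0.151 RPKM in the leukemia libraries, 0.352 and 8.53 RPKM in the preleukemia libraries and 1.51 and 0.736 RPKM in the mock libraries. At the length recovered for Ly6g these were 0 and 1 reads in leukemia, 2 and 62 in preleukemia and 11 and 5 in mock. Preleukemia library 2 stood alone, 24.2-fold above preleukemia library 1, and preleukemia overlapped mock. No difference passed the test: leukemia against mock was -0.96 (SE 0.80, limma adjusted p = 0.407), preleukemia against mock 0.78 (adjusted p = 0.522) and leukemia against preleukemia -1.74 (adjusted p = 0.179). Without preleukemia library 1 all 3 passed, at -0.96 (adjusted p = 0.0412), 2.19 (adjusted p = 0.0142) and -3.15 (adjusted p = 0.0106). Without preleukemia library 2, leukemia against mock passed (adjusted p = 0.0439). The recovered length, 336 bases, was the shortest that gave whole reads and is below the 402 coding bases of Ly6g. The reads of Ly6g may thus be too few by a whole factor. The 3-read floor of leukemia library 1, 0.425 RPKM at that length, may likewise be too high.

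Neutrophil markers differed between the same preleukemia libraries. The summed level of the 12 markers was 422 and 729 RPKM in the leukemia libraries, 3892 and 8378 RPKM in the preleukemia libraries and 12.3 and 18.2 RPKM in the mock libraries. Leukemia library 1 had 0 reads of Mmp8 and Retnlg, and Itgb2l had 0 reads in both mock libraries. In preleukemia 9 of the 12 were higher than in mock (median log2 difference 4.18, beside 0.05 over all genes), and in leukemia 8 were lower than in preleukemia (median -3.21, beside -0.09). Without leukemia library 1, and likewise without a filter on low values, 2 of those 8 calls were left, S100a8 and its partner S100a9, and without preleukemia library 2, 3 were left, these and Ltf. S100a8, a calcium-binding protein of neutrophils and monocytes, rose to 2179 and 4117 RPKM in preleukemia, against 6.25 and 5.68 RPKM in mock (8.75, limma adjusted p = 9.42e-05). The granule genes Ngp (117 and 643 RPKM) and Ltf (17.4 and 166 RPKM) were higher in preleukemia library 2, as Ly6g was. The marker Cxcr2 went the other way, with 8.94 and 7.07 RPKM in the preleukemia libraries. It had 11.5 and 10.8 RPKM in the leukemia libraries. In leukemia 0 and 0.151 RPKM of Ly6g stood beside 227 and 373 RPKM of S100a8. The part of these cells in the Ly6g values was not tested.

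Ly6d (chr15:74762056-74763620, minus strand, ENSMUSG00000034634.7), a marker of lymphoid progenitors committed to the B lineage, did not pass the filter. It had 0.0689 and 0.221 RPKM in the leukemia libraries, 0.171 and 0.602 RPKM in the preleukemia libraries and 0 and 0.215 RPKM in the mock libraries, from 0 to 9 reads, and the 3-read floor was 0.201 to 0.257 RPKM. All groups overlapped, and a difference was not detectable at this depth. The 11 B-lymphoid markers in the table summed to 12.5 and 11.9 RPKM in the leukemia libraries, 18.1 and 20.2 RPKM in the preleukemia libraries and 43.3 and 46.8 RPKM in the mock libraries. Of the 7 that passed the filter, 6 fell and 1 rose in each Evi1 group against mock. The gene that rose, Cd79b, which encodes a signalling chain of the B cell receptor, held most of the sum in leukemia, with 12.2 and 11.7 RPKM in leukemia, 14.1 and 13.6 RPKM in preleukemia and 8.50 and 9.51 RPKM in mock. Its call in leukemia (0.37, limma adjusted p = 0.0433) was lost without mock library 1 (adjusted p = 0.0543) and without any 1 of the leukemia and preleukemia libraries (adjusted p = 0.0995 to 0.211). Its call in preleukemia (0.57, adjusted p = 0.0142) was lost without preleukemia library 1 (adjusted p = 0.102) or library 2 (adjusted p = 0.104).

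By RPKM, a level per transcript length, Ly6e was the first of the 6 members in the leukemia and preleukemia libraries and Ly6c2 in the mock libraries. The order of mean levels was Ly6e, Ly6c2, Ly6a, Ly6c1, Ly6d and Ly6g in leukemia, Ly6e, Ly6c2, Ly6a, Ly6c1, Ly6g and Ly6d in preleukemia, and Ly6c2, Ly6e, Ly6c1, Ly6a, Ly6g and Ly6d in mock. In leukemia the ranges of Ly6a and Ly6c1 overlapped, as did those of Ly6d and Ly6g. In preleukemia the ranges of Ly6g and Ly6d overlapped, and in mock each gene was clear of its neighbours in the order. The 6 members summed to 412 and 418 RPKM in the leukemia libraries, 775 and 753 RPKM in the preleukemia libraries and 565 and 657 RPKM in the mock libraries. Ly6e made up 98.0% and 90.7% of this sum in leukemia, 59.0% and 51.2% in preleukemia and 46.9% and 35.9% in mock. Ly6c2 made up 1.38% and 8.33%, 34.1% and 39.9%, and 49.1% and 59.4% in the same order of groups, and Ly6a reached 4.39% and 4.80% in preleukemia, against 0.417% to 0.920% in the other 4 libraries.

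**Figure D4:**
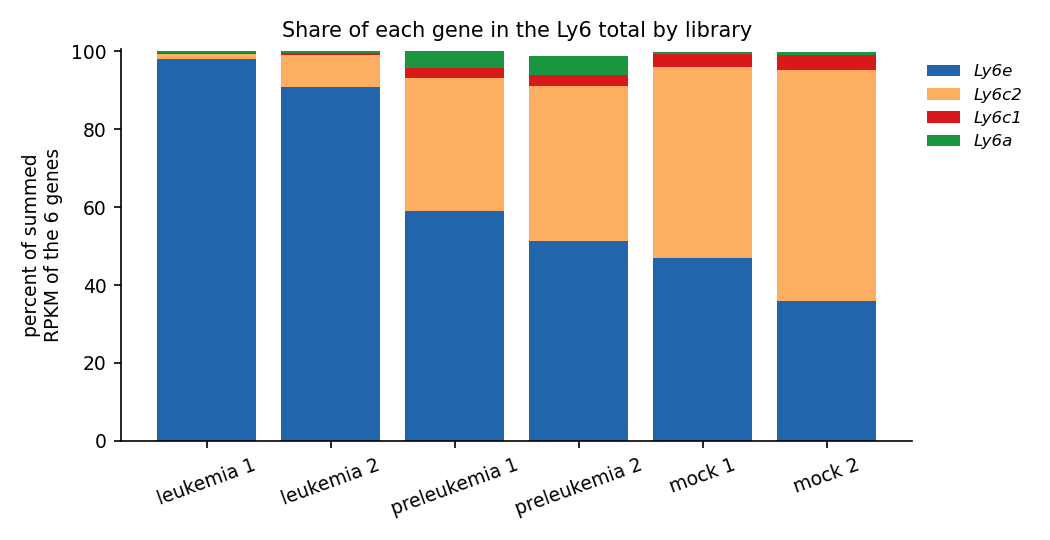
Share of each Ly6 gene in the summed RPKM of the 6 members, 1 bar per library (Ly6d and Ly6g fill the remainder). Ly6e takes 98.0% and 90.7% of the bar in leukemia, and Ly6c2 takes 49.1% and 59.4% in mock.

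Genes near the members on chromosome 15 moved in both directions in leukemia, and several stood close to the threshold. Ly6f (chr15:75268421-75272235), a close relative, had 0.0543 and 0 RPKM in leukemia, 1.28 and 3.42 RPKM in preleukemia and 0.844 and 1.64 RPKM in mock, and fell in leukemia against preleukemia (-1.63, limma adjusted p = 0.0188). That call was lost without preleukemia library 2 (-1.15, adjusted p = 0.0852), leukemia library 1 (adjusted p = 0.0972) or leukemia library 2 (adjusted p = 0.0861). Against mock Ly6f missed the threshold (-1.10, adjusted p = 0.0506) and passed with a replicate block (adjusted p = 0.0310). Ly6i (chr15:74979534-74983430), the gene next to Ly6a, had 0.271 and 0.580 RPKM in leukemia, 2.22 and 4.95 RPKM in preleukemia and 0.738 and 3.21 RPKM in mock, with no call (-1.63 and adjusted p = 0.0511 for leukemia against preleukemia). It was called lower there with a replicate block (adjusted p = 0.0119) and without mock library 1 (adjusted p = 0.0146) or library 2 (adjusted p = 0.0149). The gene 2010109I03Rik (chr15:74876987-74897021), which lies between Ly6d and Ly6e, moved the other way, with 1.39 and 1.11 RPKM in leukemia, 0.0626 and 0 RPKM in preleukemia and 0 in both mock libraries. It rose in leukemia against mock (1.16, adjusted p = 0.00388), from 55 and 41 reads in leukemia and 0 in mock. Its rise against preleukemia (1.12, adjusted p = 0.00666) was lost without preleukemia library 2 (adjusted p = 0.0559) or leukemia library 1 (adjusted p = 0.0527).

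Among the other protein-coding genes within 500 kb that passed the filter, Top1mt and Zfp41 had no call in any comparison. BC025446 had 0 and 0.0346 RPKM in leukemia, 0.923 and 1.63 RPKM in preleukemia and 0.503 and 1.98 RPKM in mock, and missed the threshold in leukemia (adjusted p = 0.0576 against mock and 0.0570 against preleukemia). It passed in both with a replicate block (adjusted p = 0.0301 and 0.0310), without mock library 1 (0.00719 and 0.0106) and with voom on recovered reads (0.0370 each). Them6 fell in leukemia against mock (-0.68, adjusted p = 0.0107), a call lost without leukemia library 1 (adjusted p = 0.0613) or library 2 (adjusted p = 0.0829). Ly6k did not pass the filter and was singled out after its values were seen. It had 69 reads in preleukemia library 1 (4.92 RPKM) and at most 5 in any other library.

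**Figure D5:**
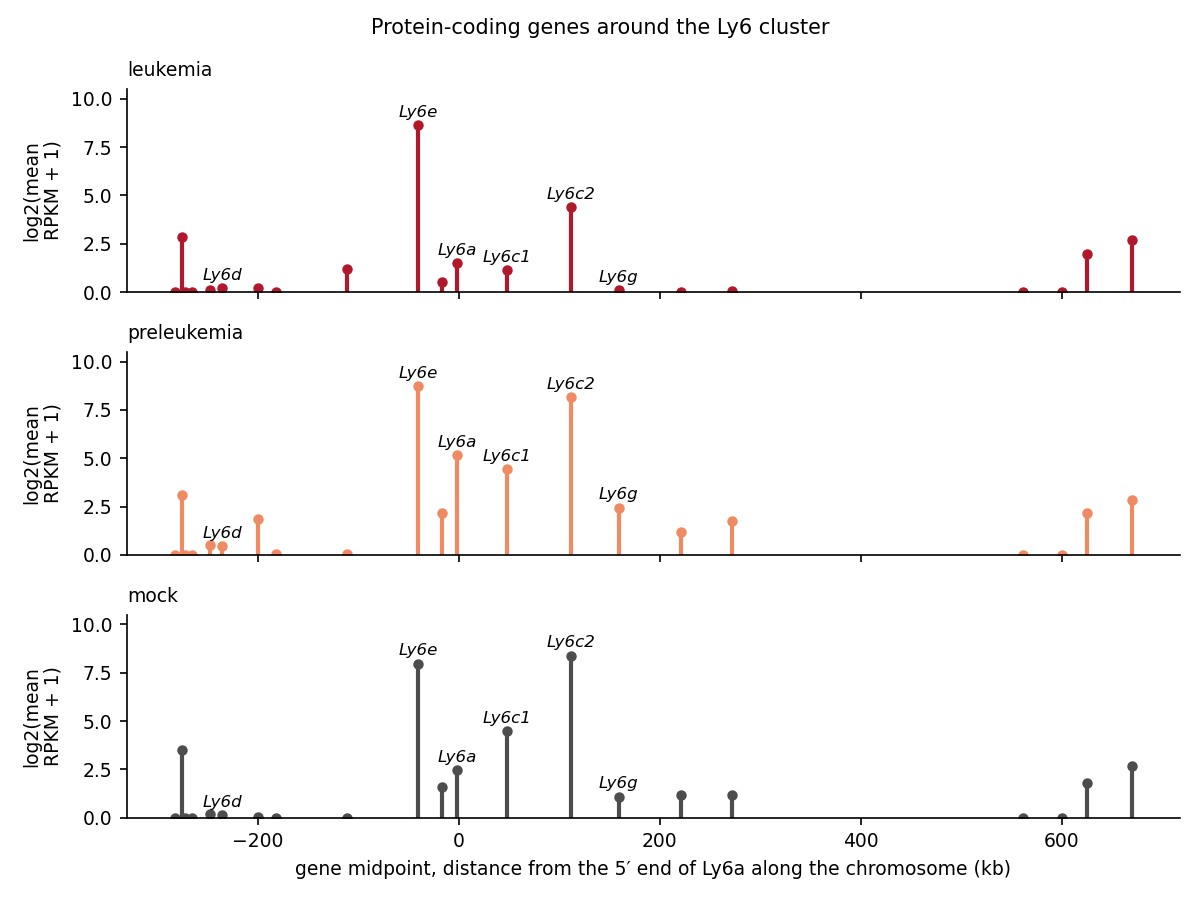
Mean level, as log2(mean RPKM + 1), of the protein-coding genes around the Ly6 cluster in leukemia, preleukemia and mock (rows), by distance in kb from the 5′ end of Ly6a. Ly6e stays high in all 3 rows, while Ly6c2 and Ly6c1 are low in leukemia and Ly6a is high in preleukemia.

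Of 36 further genes of the Ly6 and urokinase receptor family, 29 were matched in the table by symbol. Of these, 5 passed the filter (Ly6f, Ly6i, Cd59a, Plaur and Cd177). A family gene listed under another name is not counted here. The neighbours 2010109I03Rik and BC025446 carry no symbol of this list and were left out of its counts and medians. In leukemia against mock 2 of the 5 fell and none rose (median log2 difference -1.10, beside -0.04 over all genes). In preleukemia against mock 1 rose and none fell (0.53, beside 0.05), and in leukemia against preleukemia 3 fell and none rose (-1.63, beside -0.09). Over all genes tested 25.6%, 19.5% and 18.3% were called in the same order of comparisons. Cd59a, which blocks complement attack on the cell's own membrane, had 0.237 and 0.422 RPKM in leukemia, 5.32 and 5.23 RPKM in preleukemia and 4.98 and 3.93 RPKM in mock. It fell in leukemia against mock (-2.03, SE 0.16, limma adjusted p = 0.000544) and against preleukemia (-2.24, SE 0.16, adjusted p = 0.000937). Like the Ly6C genes, it was low in both leukemia libraries only.

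Plaur, the urokinase receptor, had 2.86 and 1.93 RPKM in leukemia, 9.44 and 9.20 RPKM in preleukemia and 13.7 and 53.3 RPKM in mock. It fell in leukemia against mock (-3.07, adjusted p = 0.00869), a call lost without leukemia library 2 (adjusted p = 0.0557). Cd177, a neutrophil surface protein also counted among the neutrophil markers, had 1.72 and 6.46 RPKM in leukemia, 24.8 and 87.8 RPKM in preleukemia and 0.341 and 0.985 RPKM in mock. It rose in preleukemia against mock (4.87, adjusted p = 0.00495) and fell in leukemia against preleukemia (-3.41, adjusted p = 0.0163), the fall being lost without preleukemia library 2 (-2.52, adjusted p = 0.0848) or leukemia library 1 (-2.68, adjusted p = 0.0940). Preleukemia library 2 was the higher one for Cd177, as for Ly6g.

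Sca-1 is read beside other surface markers in stem and progenitor gates, and the genes of 14 of these were examined. In leukemia against mock 1 rose and 8 fell (median -0.60, beside -0.04 over all genes). In preleukemia against mock 1 rose and 4 fell (-0.19, beside 0.05), and in leukemia against preleukemia 2 rose and 4 fell (-0.54, beside -0.09). Over all genes tested 25.6%, 19.5% and 18.3% were called in the same order of comparisons. Thy1, a GPI-anchored marker of stem and T cells, had 2.14 and 2.20 RPKM in leukemia, 11.5 and 13.2 RPKM in preleukemia and 0.907 and 1.43 RPKM in mock. It rose in preleukemia against mock (2.63, SE 0.16, limma adjusted p = 0.000406) and fell in leukemia against preleukemia (-2.07, SE 0.16, adjusted p = 0.00134), and both calls held without each library in turn. Thy1 was thus highest in the same libraries as Ly6a. Unlike Ly6a, Thy1 was higher in leukemia than in mock (0.56, limma adjusted p = 0.0441). That call was lost without a filter on low values (adjusted p = 0.109), with a filter at 5 RPKM (0.0607) and in a fit of the 4 libraries compared (0.0901). Unlike the other Thy1 calls, it did not hold without each library in turn.

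Other genes of the gate took other directions. Flt3, the cytokine receptor of multipotent and lymphoid progenitors, had 1.63 and 4.19 RPKM in leukemia, 3.66 and 3.13 RPKM in preleukemia and 14.7 and 18.6 RPKM in mock. It fell in leukemia (-2.25, adjusted p = 0.00362) and in preleukemia (-2.0, adjusted p = 0.00741), each against mock, the call in preleukemia being lost without preleukemia library 2 (-1.91, adjusted p = 0.0640). Cd27 fell in leukemia against mock (0.123 and 0.0874 RPKM in leukemia, 12.5 and 5.82 RPKM in mock; -3.12, adjusted p = 0.00139). Cd244, a receptor of committed progenitors and NK cells, fell in preleukemia against mock (1.82 and 1.97 RPKM in preleukemia, 5.44 and 5.0 RPKM in mock; -1.10, adjusted p = 0.00334) and was higher in leukemia than in preleukemia (1.42, adjusted p = 0.00215).

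The genes that make, attach and trim the GPI anchor were examined as a list. Of 29, 27 were in the table and 25 passed the filter. In leukemia against mock 3 rose, 1 fell and 21 did not pass (median 0.07, beside -0.04 over all genes), and in preleukemia against mock 4 rose, none fell and 21 did not pass (0.20, beside 0.05). In leukemia against preleukemia 1 rose, 3 fell and 21 did not pass (-0.09, beside -0.09). The share called over all genes tested was 25.6%, 19.5% and 18.3% in the same order of comparisons. Mppe1, an enzyme that trims the anchor, had 13 and 14.7 RPKM in leukemia, 24.6 and 26.7 RPKM in preleukemia and 12 and 12.4 RPKM in mock, and rose in preleukemia against mock (1.01, SE 0.11, limma adjusted p = 0.00229). It fell in leukemia against preleukemia (-0.84, adjusted p = 0.00441), a call lost without preleukemia library 2 (-0.79, adjusted p = 0.0557). Dpm1, which makes the mannose donor of the anchor, had 4.07 and 3.27 RPKM in leukemia, 1.51 and 0.784 RPKM in preleukemia and 1.09 and 1.17 RPKM in mock, and rose in leukemia against mock (1.13, adjusted p = 0.00919), a call lost without leukemia library 1 (1.00, adjusted p = 0.0646).

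Interferon receptors, kinases and transcription factors moved in both directions. All 14 passed the filter, and in leukemia against mock 3 rose and 3 fell (median 0.01, beside -0.04 over all genes). In preleukemia against mock 5 rose and none fell (0.10, beside 0.05), and in leukemia against preleukemia 2 rose and 4 fell (-0.10, beside -0.09). Over all genes tested 25.6%, 19.5% and 18.3% were called in the same order of comparisons. Among those that rose in preleukemia were Stat2, Irf7, Tyk2 and Irf9, with Stat2 at 11.8 and 13 RPKM in preleukemia, against 7.83 and 6.81 RPKM in mock (0.69, limma adjusted p = 0.0102). Each of these named genes missed the threshold without preleukemia library 1 and again without preleukemia library 2, Stat2 at adjusted p = 0.0557 and 0.103. Irf7, a factor that interferon itself induces, had 1.07 and 1.23 RPKM in leukemia, 4.23 and 3.34 RPKM in preleukemia and 2.11 and 2.24 RPKM in mock, and fell in leukemia against preleukemia (-1.15, adjusted p = 0.00486). Ifngr1, a chain of the interferon-gamma receptor, had 28.2 and 39.0 RPKM in leukemia, 69.9 and 66.0 RPKM in preleukemia and 75.0 and 56.9 RPKM in mock, and fell in leukemia against mock (-0.96, adjusted p = 0.0125), a call lost without leukemia library 1 (-0.73, adjusted p = 0.0660).

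The remaining lists cover cell types that can carry Ly6 proteins. T and NK markers summed to 9.48 and 16.9 RPKM in leukemia, 71.0 and 71.0 RPKM in preleukemia and 90.1 and 50.5 RPKM in mock, of which Nkg7 held 6.83 and 14.6, 66.7 and 67.2, and 87.7 and 47.1 RPKM in the same order. Endothelial and stromal markers summed to 48.3 and 47.6 RPKM in leukemia, 35.1 and 27.3 RPKM in preleukemia and 36.2 and 39.4 RPKM in mock, most of it Pecam1, which blood cells also express. Erythroid markers summed to 271 and 313 RPKM in leukemia, 277 and 193 RPKM in preleukemia and 352 and 154 RPKM in mock. Most of the leukemia sums was the globin gene Hbb-bt, which had 266 and 298 RPKM in leukemia, 64.1 and 44.6 RPKM in preleukemia and 2.43 and 5.98 RPKM in mock. It rose in leukemia against mock (5.85, limma adjusted p = 0.000206) and against preleukemia (2.37, adjusted p = 0.00569), the second call being lost without preleukemia library 2 (2.12, adjusted p = 0.0520). Of the 9 erythroid markers tested, Hbb-bt alone rose and 7 fell in leukemia against mock, 8 fell against preleukemia, and 3 rose in preleukemia against mock. Among the 7 that fell against mock, the globin gene Hbb-bs stood close to the threshold (-0.91, limma adjusted p = 0.0458). Its call was lost with a filter at 5 RPKM (adjusted p = 0.0503), a pseudocount of 0.1 (0.0618) and trimmed-mean scaling (0.0528). A fit of the 4 libraries compared (adjusted p = 0.0913) and one with no trend in the spread (0.0508) lost it too. The Hbb-bs call was also lost without a filter on low values (adjusted p = 0.123), and not as the only 1 of the 7. Their part in the levels of the Ly6 members was not tested.

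The tested genes nearest in profile to each member were found by the root mean square difference of log2(RPKM + 1) over the 6 libraries, each gene centred on its own mean. For Ly6a they were the globin gene Hbb-bs (0.298), the matrix protein gene Tgfbi (0.312), the myeloid receptor gene Clec5a (0.489), Prom1, which encodes the surface protein CD133 (0.490), and the sphingomyelin synthase gene Sgms2 (0.50). Tgfbi had 1.14 and 1.27 RPKM in leukemia, 25.9 and 25.2 RPKM in preleukemia and 4.34 and 6.39 RPKM in mock. Prom1 had 0.0738 and 0.394 RPKM in leukemia, 11.7 and 16.8 RPKM in preleukemia and 1.46 and 0.471 RPKM in mock. Ptpn12, a tyrosine phosphatase gene, was nearest to Ly6c1 (0.0567) and to Ly6c2 (0.561), followed by Nmral1 for Ly6c1 (0.321) and by Ly6c1 itself for Ly6c2 (0.593). Ptpn12 had 0.149 and 1.38 RPKM in leukemia, 15.3 and 18.5 RPKM in preleukemia and 15.6 and 20.5 RPKM in mock. For Ly6e the nearest were 2610035D17Rik (0.0652) and Bloc1s3 (0.0653), and for Ly6g they were Gm6594 (0.459) and Adpgk (0.522).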

How the data were processed

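RNA was sequenced in 6 libraries, 3 groups of 2, with the NEBNext Ultra RNA kit after sorting by flow cytometry, per the labels' protocols. CASAVA 1.8.2 and GRCm38 appear, with no role given, in the submitters' processing notes. The aligner and counter are not given in the sources used. The authors deposited 1 value per gene and library. The unit RPKM of these deposited values was inferred from their steps: with each library's total and 1 length per gene of 200 to 20000 bases, the values of 99.8% of rows above 0 (19752 of 19788) came out as whole reads within 0.001 in all 6 libraries. The shortest length that fitted was taken, so a length and its reads can be too small by a whole factor. The recovered totals, lengths and reads were used for depth, Poisson intervals and 1 alternative test. Strand is not stated, so antisense transcripts cannot be told apart. Locations and transcripts come from GENCODE M21, in which 35428 row names had a unique match by symbol.

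The comparison used limma (3.58.1, R 4.3.3) on log2(RPKM + 1), which understates changes of low genes, for the 10958 genes that reached 1 RPKM in 2 or more libraries. The fit held group means, no covariate and a spread that follows the mean level (3 residual and 3.70 prior degrees of freedom). Tests were two-sided and adjusted over all genes tested. Ratios of group means are of RPKM. The fit was tested on simulated data. The genes of the Ly6 family, the gene lists and the tests were chosen with earlier results of these data known. Genes were named as members, as tested protein-coding neighbours within 500 kb, as nearest profiles, as relatives that passed the filter and as up to 4 genes per list and comparison with the largest differences past the test, not all of which are reported; Irf9, Cd14, Itgb2l, Mmp8, Retnlg, Cd79b and Ly6k stand outside that rule and were chosen after their values were seen. Alternatives were other pseudocounts, filters, scalings and spreads, a fit of 4 libraries, a replicate block, each library left out, and, chosen after seeing the data, voom on the recovered reads.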

Additional observations from a re-analysis of the deposited data

How the results depend on the processing

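The 5 members that passed the filter were followed over 3 comparisons and all alternatives. Of these values 221 were unchanged, 6 lost a call, 5 gained one, 5 moved and 0 reversed. For tested members, unchanged meant the same side of the threshold. For Ly6a it meant the same direction and a shift smaller than the SD between libraries. A change of direction with no call in either fit counted as unchanged, so the 221 need not all keep the reported direction. The 5 that moved were the untested Ly6a difference of leukemia against preleukemia, -3.69 as reported. It was -4.21 and -3.95 with pseudocounts of 0.1 and 0.5, -3.61 after trimmed-mean scaling, -3.57 after quantile normalization and -4.26 with voom. The lost and gained calls were those given for Ly6c2, Ly6e and Ly6g, and the fit of 4 libraries also called Ly6g in leukemia against mock (adjusted p = 0.0440). With each library left out in turn, the calls among the 4 tested members were 2 to 4 for leukemia against mock, 1 to 1 for preleukemia against mock (Ly6g in place of Ly6e without preleukemia library 1) and 1 to 2 for leukemia against preleukemia, and the calls over the gene lists were 30 to 50 (50 as reported), 20 to 50 (41 as reported) and 16 to 57 (44 as reported). Without a filter on low values the lists held 26 calls for leukemia against preleukemia. Cd14 in leukemia against mock, 0.04 as reported, changed direction without mock library 1, to -1.32 (adjusted p = 0.0478), and ranged up to 1.40 without mock library 2. In these fits the lone library of a group is assumed to vary like the other groups. The cause of these changes was not tested, beyond the fewer libraries or other genes in each fit. Quantile normalization shifted the median difference of all genes from -0.09 to 0.03 in leukemia against preleukemia. The replicate numbers are not stated to pair libraries, and deviations of same-numbered libraries correlated over genes at 0.12, 0.01 and 0.18; with the number as a replicate block the calls among members were 3, 1 and 2, as reported, and over the lists 54, 39 and 44. Voom on the recovered reads gave 3, 1 and 2 calls among members and 45, 37 and 41 over the lists. Counts of reads limit Ly6a, Ly6c1, Ly6d and Ly6g in leukemia.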
